A study of Mus musculus with 4 samples.

Results

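At Dhrs7 lies an H3K27ac domain listed as stronger in embryonic stem (ES) cells of C57BL/6 (B6) mice than of non-obese diabetic (NOD) mice. It was described together with all other strain-enriched regions around the gene. Members were all H3K27ac regions that the files assign to Dhrs7, and all regions of either mark with a midpoint in a window of 350 kb on chromosome 12, from 165 kb downstream to 185 kb upstream of the start of the gene. These were 9 of the 31315 regions of the series. A region is called enriched in the strain whose list holds it. The 9 comprised 4 of 5525 H3K27ac regions enriched in B6, 0 of 6126 H3K27ac regions enriched in NOD, 3 of 7587 H3K4me3 regions enriched in B6 and 2 of 12077 H3K4me3 regions enriched in NOD. The files assigned 2 H3K27ac regions to Dhrs7, both of them enriched in B6. The locus was chosen by the H3K27ac score and the B6 direction of its leading region, so that score and that direction are given below as a description.

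ChIP-Seq of both marks was carried out on ES cells derived from blastocysts of B6 and NOD mice, all grown under the same 2i conditions, that is with inhibitors of MEK and GSK3 and without feeder cells. There was 1 library for each strain and mark, 4 in all, so no value has a replicate and no difference between strains was tested. Regions of each strain were called against the other strain's library in place of an input. A region absent from both lists may therefore be unmarked or equally marked, and a full list of marked regions per strain was not used here. For H3K4me3 the depth was 14791364 tags for B6 and 22750449 for NOD, and for H3K27ac it is unknown. Intervals below are exact 95% intervals that cover counting error only.

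H3K27ac is an acetylation of histone H3 found at active enhancers and active promoters, and long clusters of such enhancers are known as super enhancers. H3K4me3 is a methylation of the same histone that is strongest at active promoters, above all at those rich in CpG dinucleotides. Dhrs7 encodes a membrane-bound enzyme of the short-chain dehydrogenase/reductase (SDR) family, whose members act on steroids, retinoids and other carbonyl compounds.

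The leading domain spanned 24.5 kb (chr12:72663992-72688450, mm10) and reached from the first intron of Dhrs7 across its transcription start site (TSS) into the intergenic DNA before the gene. Dhrs7 lies on the minus strand (chr12:72650353-72664828, 7 exons, 14.5 kb). Of the domain, 837 bp lay inside the gene and 23.6 kb (96.6%) upstream of the TSS. Its centre was 11.4 kb upstream, in a B4A repeat of the SINE class, and was annotated as intergenic by the authors. The following stretches of the reference show DNA of the listed regions, with the cytosine and guanine of each CpG in capitals. The reference is of the B6 strain, and NOD sequence was not read. The promoter held the densest CpGs of the domain. The domain and H3K4me3 centres show DNA poor in CpG. The NOD region is one whose tag counts, given below, went in the opposite strain direction, which its sequence does not show. The domain has a single score for its whole span, so where within it the acetylation lay is not known.
Dhrs7 promoter, 250 bases before the TSS (chr12:72664829-72665078, minus strand): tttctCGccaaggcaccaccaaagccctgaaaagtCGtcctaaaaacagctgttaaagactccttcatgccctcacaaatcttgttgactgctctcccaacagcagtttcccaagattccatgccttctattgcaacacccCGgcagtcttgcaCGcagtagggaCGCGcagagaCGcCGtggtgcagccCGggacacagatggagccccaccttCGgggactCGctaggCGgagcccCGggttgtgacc
Centre of the H3K27ac domain (chr12:72676072-72676371, plus strand): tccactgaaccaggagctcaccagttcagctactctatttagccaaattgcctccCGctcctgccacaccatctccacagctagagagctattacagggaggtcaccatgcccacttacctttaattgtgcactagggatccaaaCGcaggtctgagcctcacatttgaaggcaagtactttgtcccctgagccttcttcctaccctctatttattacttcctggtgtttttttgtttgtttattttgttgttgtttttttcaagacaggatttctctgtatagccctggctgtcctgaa
Centre of the wide B6 H3K4me3 region (chr12:72690096-72690395, plus strand): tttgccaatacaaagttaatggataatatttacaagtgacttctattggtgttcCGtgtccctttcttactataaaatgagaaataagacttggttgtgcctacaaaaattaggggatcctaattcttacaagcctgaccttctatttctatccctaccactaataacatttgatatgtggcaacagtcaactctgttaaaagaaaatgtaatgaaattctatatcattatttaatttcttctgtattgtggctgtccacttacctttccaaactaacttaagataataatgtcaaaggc
Centre of the nearest NOD H3K4me3 region (chr12:72733555-72733854, plus strand): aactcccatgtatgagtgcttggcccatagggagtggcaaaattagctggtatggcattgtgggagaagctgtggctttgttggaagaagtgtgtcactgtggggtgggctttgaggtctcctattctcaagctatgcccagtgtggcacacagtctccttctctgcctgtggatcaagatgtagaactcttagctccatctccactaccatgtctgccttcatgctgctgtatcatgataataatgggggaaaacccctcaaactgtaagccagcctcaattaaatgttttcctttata

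The promoter stretch held 13 CpGs in 250 bases, a GC content of 57.2% and an observed over expected CpG ratio of 0.653. The domain centre held 2 CpGs in 300 bases (ratio 0.134). The centre of the wide B6 H3K4me3 region held 1 CpG in 300 bases, with a GC content of 32.3%. The NOD centre held 0 CpGs, but its whole region of 500 bp held 7. Over whole regions the ratio was 0.250 there, 0.201 in the wide B6 H3K4me3 region and 0.233 in the domain. The CpG-dense DNA at the Dhrs7 promoter was thus at one end of the domain and the wide H3K4me3 region beyond the other.

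The leading domain had an H3K27ac score of 603.0, where the score is taken to be the signal of B6 less that of NOD, since the files define neither its make-up nor its units. It was second of 5525 B6 regions by this score. The region above it, assigned to the predicted gene Gm15698, scored 658.6 over 697 bp, and the region below it, assigned to the scaffold protein gene Magi1, scored 471.3 over 1740 bp. Both neighbours in the order were much narrower than the domain at Dhrs7. The score was 47.1 times the median of the B6 list (12.8). On chromosome 12 the next B6 region scored 158.1 and was assigned to Gm5441, so that the Dhrs7 domain scored 3.81 times as high. It held 9.81% of the summed positive score of the 229 B6 regions on the chromosome and 0.425% of that of the whole list.

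**Figure D1:**
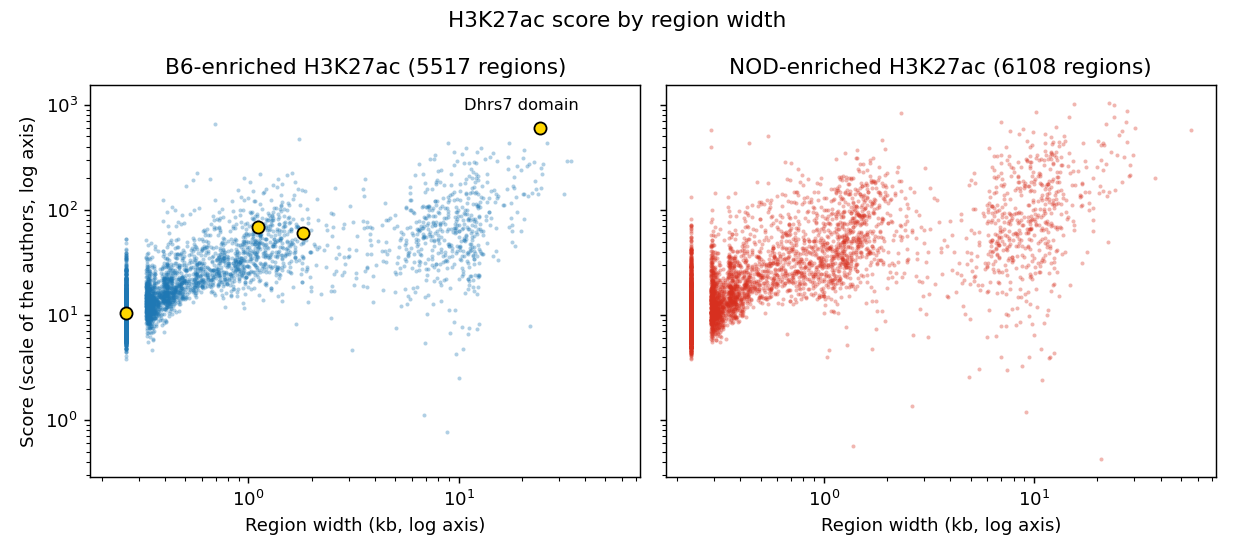
Each point is 1 H3K27ac region with a score above 0, by width in kb (x, log axis) and score (y, log axis), for the B6-enriched list (left, blue) and the NOD-enriched list (right, red). The 4 gold points are the regions in the Dhrs7 window, and the one at the upper right is the 24.5 kb domain with a score of 603.0.

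By width the domain was ninth of the 5525 B6 regions, and by score per kb (24.7) it was at place 4640. The domain was thus near the top in summed score and, per kb, below most regions of the list, whose median width was 262 bp. Among the 237 B6 regions of at least 10 kb, called wide domains below, it had the highest score, 8 were wider and 7 had a higher score per kb. Wide domains of B6 had a median width of 12 kb, a median score of 76.3 and a median score per kb of 6.25. Scores of the wide B6 domains ran from -819 to 603, and those of NOD from -41.3 to 1045. On the reading above, a negative score would mean less signal in the strain of the list. Such regions remained in these counts and medians. In width, score and score per kb the Dhrs7 domain was thus in the upper part of the wide domains of its own list.

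The next wide B6 domains were assigned to Mfap3, a microfibril-associated protein gene (score 431.9, 17.5 kb), Scaf4, an RNA-processing gene (431.4, 26.2 kb), Nlrp4f, a member of an oocyte-expressed NLR family (387.5, 12.8 kb), and the predicted gene Gm6249 (383.9, 10.9 kb). Scaf4 had 16.5 score units per kb, Mfap3 24.7, Nlrp4f 30.3 and Gm6249 35.2. The Dhrs7 domain equalled Mfap3 per kb to 3 digits and was below Nlrp4f and Gm6249. The 254 wide domains of the NOD list reached higher scores, with 1045.4 at Gm14296, 1024.4 at Smarca5-ps, 986.0 at Crxos, 869.9 at Slc35g1 and 847.0 at G530011O06Rik. These 5 had between 31.5 and 82.9 score units per kb, above the domain at Dhrs7. Scores of both lists were made separately, and whether they share a scale is not stated.

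There were 3 further B6 H3K27ac regions in the window, all far below the leading domain. The second region assigned to Dhrs7 lay over the 3′ end of the gene (chr12:72649316-72650431, 1115 bp, 15.0 kb downstream of the TSS) and scored 68.5, at place 395 of the list. Its score per kb of 61.4 was above the 24.7 of the leading domain. Listed B6 H3K27ac regions thus reached over both ends of the gene, with none over the body between them. A region of 1824 bp in intergenic DNA (chr12:72714611-72716435), centred in an MLTR25A long terminal repeat of the ERVK class, scored 60.1. A region of 262 bp in a B1_Mur3 SINE repeat (chr12:72802602-72802864) scored 10.5, below the list median. Both of these were assigned to Ppm1a, a phosphatase gene whose product acts on SMAD proteins, from distances of 45.7 kb and 41.5 kb. A further field, labelled focus ratio or region size by the pipeline, held 0.734 for the region at the 3′ end of Dhrs7. It held 1.239 for that in the long terminal repeat, and the region size for the leading domain. Since the meaning of this field differs between regions and is not stated, no region was classed as a super enhancer from it.

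The 4 regions summed to a score of 742, of which the leading domain held 81.3%, and it scored 8.80 times as high as the next. Both regions assigned to Dhrs7 summed to 672, second of 4379 genes in the B6 list after Magi1 with 1883 from 20 regions. B6 H3K27ac regions covered 7.90% of the window and 0.232% of chromosome 12, figures that follow from the choice of the window around the domain.

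**Figure D2:**
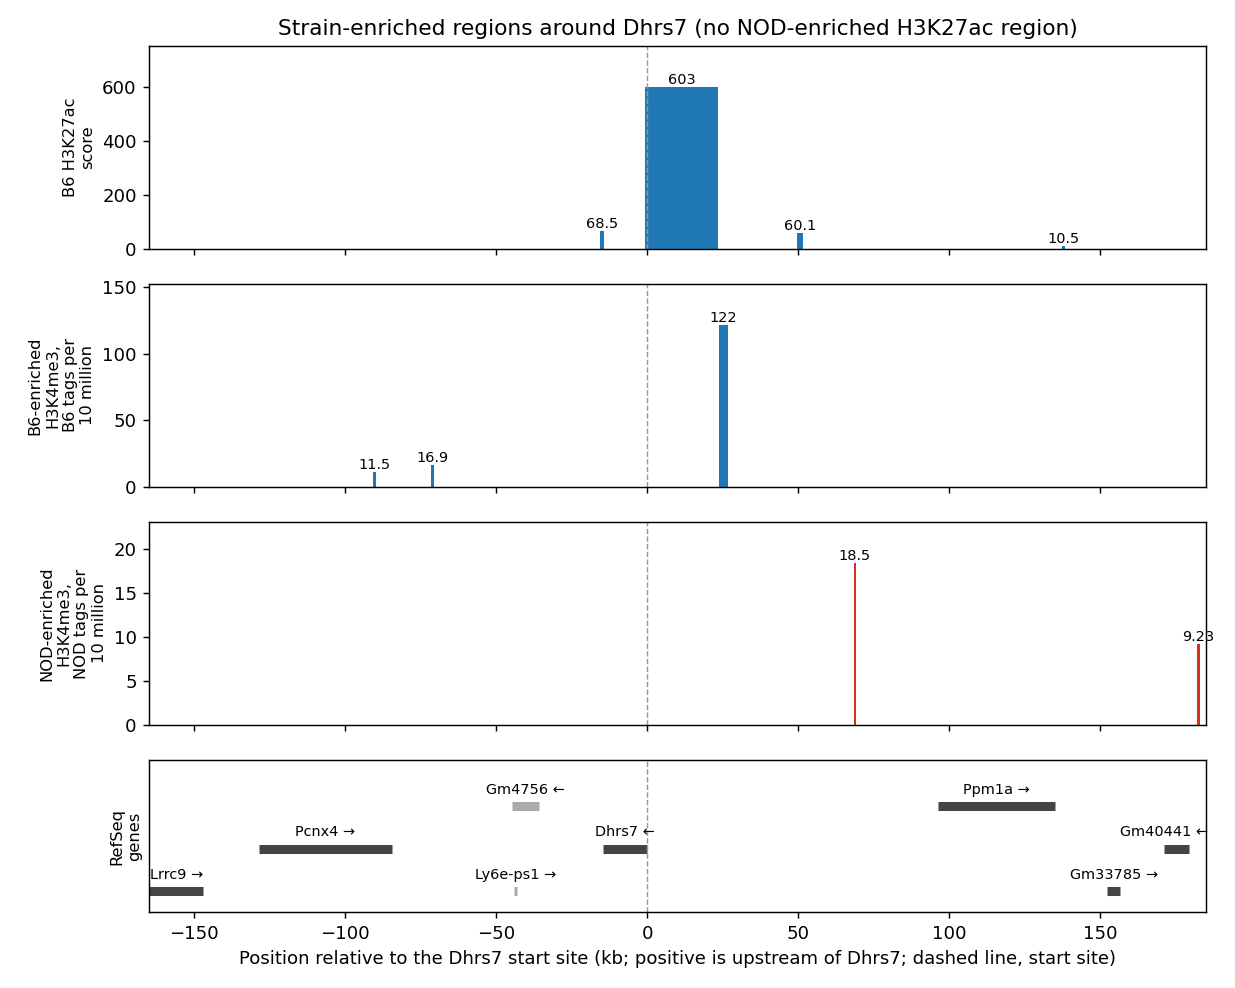
Strain-enriched regions in the window of 350 kb by distance from the Dhrs7 TSS in kb (x; positive values are upstream of Dhrs7). Bar height gives the H3K27ac score (top, B6 list) or normalised H3K4me3 tags per 10000000 tags of the library (middle, B6 list; lower, NOD list; each panel has its own scale), bars narrower than 0.9 kb are drawn at that width, and the bottom panel shows RefSeq genes with their direction, pseudogenes in light grey. The domain of 603.0 starts at the Dhrs7 TSS and ends beside the H3K4me3 region of 122 normalised B6 tags, and no NOD H3K27ac region was listed.

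No NOD H3K27ac region lay in the window. On chromosome 12 such regions numbered 2.12 per Mb. Of the 254 gaps between them, 32 were at least as long as the gap around the domain, that gap included. To the left, the nearest one was 605 kb from the domain centre, assigned to the receptor gene Gpr135 (score 24.2). The one to the right was nearer and is not reported here. In B6, the next H3K27ac regions beyond the window were 822 kb to the left (assigned to Daam1, score 7.13) and 2812 kb to the right (assigned to Gphb5, score 51.5). The B6 H3K27ac regions assigned to Dhrs7 and Ppm1a thus had no other listed B6 H3K27ac region nearer than these on either side. Chromosome 12 held 1.91 B6 H3K27ac regions per Mb, and the lengths of other gaps between them were not compared. The absence of nearer regions holds for H3K27ac only, as a B6 H3K4me3 region lay nearer, 57.9 kb left of the window.

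Directly beyond the far end of the domain lay a B6-enriched H3K4me3 region of 3031 bp (chr12:72688730-72691761), separated from it by 280 bp. Counts of both strains are known for this mark. The rule took the region by position and list, but the listing itself rests on these counts. The region held 181 tags in the B6 library and 36 in the NOD library, which is 122 (105 to 142) and 15.8 (11.1 to 21.9) normalised tags, that is tags per 10000000 tags of the library. The intervals of the strains did not overlap, an outcome that the listing favours. The fold of B6 over NOD was 7.73 (95% interval 5.38 to 11.4). Scaled to the tags in listed regions in place of all tags, the same fold was 15.6, outside this interval. Since the authors listed only regions at least 4-fold above the other strain, every listed fold is about 4 or more, and the median over B6 regions with NOD tags was 7.18. The fold of the region beside the domain was thus close to the list median.

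The region stood out by width rather than by fold. It was the widest of the 7587 B6 H3K4me3 regions, 83.4% of which had the width of a single peak call (500 bp), and the next measured 2994 bp. Of the B6 regions, 179 were at least 1000 bp wide and 19 at least 2000 bp, against 835 and 183 of the NOD regions. In the NOD list, which came from a library 1.54 times as deep, 42 regions were wider than 3031 bp. By B6 tags it was at place 39 of the B6 list, and together with the H3K27ac domain it spanned 27.8 kb.

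**Figure D3:**
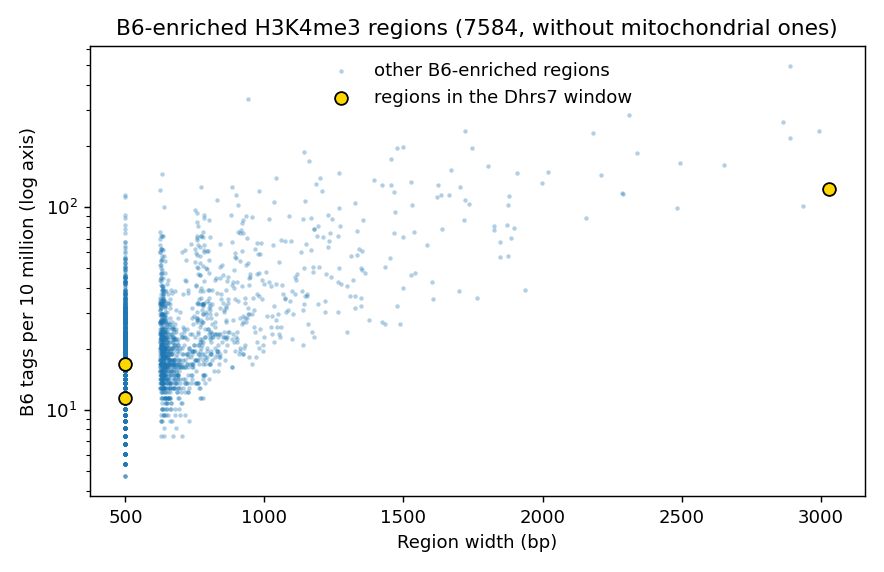
B6-enriched H3K4me3 regions by width in bp (x) and normalised B6 tags (per 10000000 tags of the library; y, log axis), with the 3 regions of the Dhrs7 window in gold and the other regions of the 7584 nuclear ones in blue. The gold point at the far right is the region of 3031 bp with 122 normalised tags, and the other 2 gold points are at 500 bp.

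The 17 nuclear B6 H3K4me3 regions of at least 2 kb were compared. The one beside the Dhrs7 domain was centred 25.4 kb from the nearest TSS, that of Dhrs7, and 71.0 kb from the TSS of Ppm1a. Of the 17, 3 were centred within 1 kb of a TSS, 6 within 5 kb and 6 more than 20 kb away, and 3 were farther from a TSS than the one beside the Dhrs7 domain. A B6 H3K27ac region lay within 1 kb of 7 of the 17, and a wide B6 domain within 1 kb of 2, those at Dhrs7 and Mfap3. The region near Dhrs7 had an observed over expected CpG ratio of 0.201, against a median of 0.265 and a range from 0.116 to 0.804 over the 17. Wide H3K4me3 far from an annotated TSS in CpG-poor DNA was therefore shared by several regions of the B6 list.

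No B6 or NOD H3K4me3 region overlapped the H3K27ac domain, its Dhrs7 promoter included. Of the wide B6 domains, 51 of 237 (21.5%) overlapped a B6 H3K4me3 region and 57 (24.1%) had one within 1 kb, as the Dhrs7 domain did. Of the wide NOD domains, 112 of 254 (44.1%) overlapped a NOD H3K4me3 region and 121 (47.6%) had one within 1 kb. A TSS lay inside 96 of the wide B6 domains (40.5%), and 65 of these 96 (67.7%) overlapped no B6 H3K4me3 region. The domain at Dhrs7 was one of the 65. Since the lists hold only strain differences, the absence of a listed region at the Dhrs7 promoter does not show whether the promoter carried H3K4me3.

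The 2 other B6 H3K4me3 regions were single peak calls of 500 bp on the far side of Dhrs7. One lay in intergenic DNA 71.0 kb downstream of the Dhrs7 TSS (chr12:72593539-72594039) and held 25 B6 tags and 0 NOD tags, at least 12.8-fold higher in B6 against a floor of 3 tags per library, with an exact lower 95% limit of 9.67. The other lay in an exon of Pcnx4, a pecanex family gene (chr12:72574225-72574725), and held 17 B6 tags and 3 NOD tags, an 8.72-fold difference (2.52 to 46.4). Both were weak, with 16.9 and 11.5 normalised B6 tags beside 122 at the wide region and a list median of 13.5.

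In the opposite direction, 2 H3K4me3 regions of the window were enriched in NOD. The one nearest to the domain (chr12:72733454-72733954) lay 27.5 kb upstream of the Ppm1a TSS and held 42 NOD tags and 6 B6 tags, 4.55-fold higher in NOD (1.93 to 13.1), and 69.7% of it was masked as repeats. The other lay 3.08 kb upstream of the TSS of the predicted gene Gm40441 (chr12:72847256-72847756) and held 21 NOD tags and 0 B6 tags, at least 4.55-fold higher in NOD against the floor of 3 tags, with an exact lower limit of 3.39. At 18.5 and 9.23 normalised NOD tags, these were on either side of the NOD list median of 13.2 and far below the 122 normalised B6 tags beside the domain. In the window, H3K4me3 regions were thus listed in both directions. H3K27ac regions were listed for B6 only, the direction by which the locus was chosen.

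**Figure D4:**
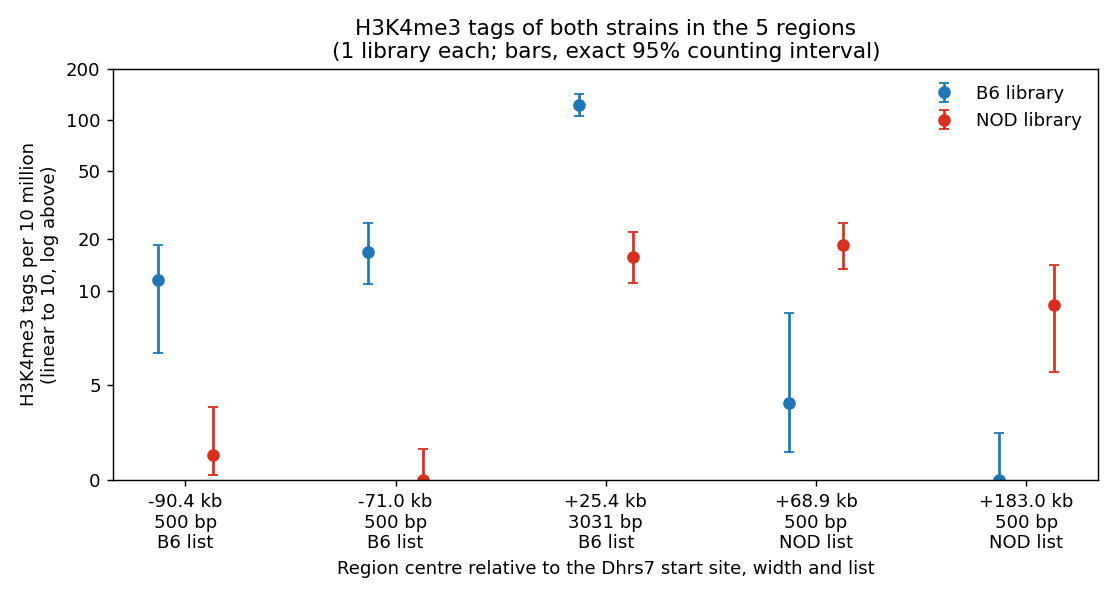
Normalised H3K4me3 tags per 10000000 tags of the library (y; linear up to 10, log above) in the 5 regions of the window, ordered by position from the Dhrs7 TSS, with B6 in blue and NOD in red. Points are the value of the single library and bars its exact 95% counting interval. The intervals of B6 and NOD did not overlap in any of the 5 regions, each of which the authors listed for its difference, and the region at 25.4 kb was far above the others in B6.

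The window edges do not part marked from unmarked DNA. The H3K4me3 region just outside it on the left was a B6 region at 57.9 kb (36 B6 tags, 13 NOD tags). The members next to the edges were the Pcnx4 region on the left (17 B6 tags, 3 NOD tags) and the Gm40441 region on the right (21 NOD tags, 0 B6 tags). All 3 of these held far fewer tags than the wide region beside the domain.

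Apart from the promoter, the DNA under the domain was poor in CpG, as it was for wide domains in general. The domain held 274 CpGs, an observed over expected CpG ratio of 0.233 (median of wide B6 domains 0.228), a GC content of 43.9% (median 45.6%) and a repeat-masked share of 38.7% (median 27%). Of the 236 other wide B6 domains, 110 had a higher CpG ratio, 169 a higher GC content and 35 a higher masked share. In CpG ratio the domain was thus near the middle, and in repeats it was in the upper part. In bins of 1 kb, the 24 bins of the domain had a median of 10 CpGs, beside 9 over the 350 bins of the window. The bin at the TSS held 49, the only one of the 24 with 20 or more. The 3 bins of the wide H3K4me3 region held between 5 and 7, and the peak of the window, 140, was at the Ppm1a promoter, where no strain-enriched region was listed.

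**Figure D5:**
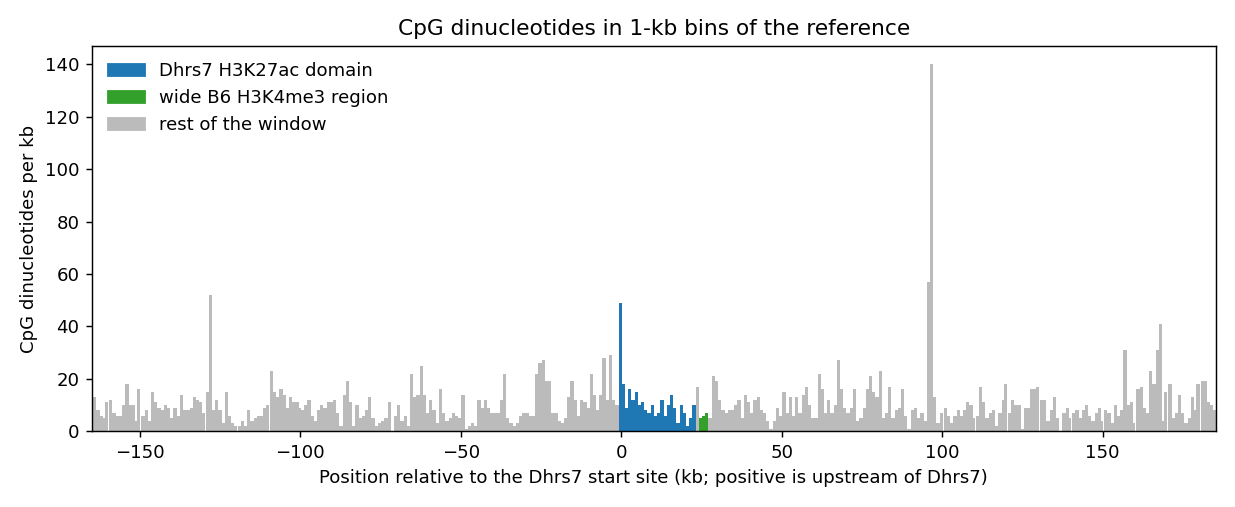
CpG dinucleotides per kb of the reference (y) in bins of 1 kb by distance from the Dhrs7 TSS in kb (x; positive values are upstream of Dhrs7), with the bins of the H3K27ac domain in blue, those of the wide B6 H3K4me3 region in green and the rest of the window in grey. The blue bin at the TSS has 49, all other blue bins are below 20, and the bin of 140 is at the Ppm1a promoter.

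Binding motifs of pluripotency factors were searched in the domain on both strands. The octamer of POU factors such as OCT4 (ATGCAAAT) was present at 2 positions, 10.5 kb and 13 kb upstream of the TSS, on either side of the domain centre. They are shown in 60 bases of the plus strand, with the motif in capitals, reversed and complemented in the second.
Octamer at 10.5 kb (chr12:72675326-72675385): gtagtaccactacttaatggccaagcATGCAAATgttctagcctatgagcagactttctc
Octamer at 13 kb (chr12:72677803-72677862): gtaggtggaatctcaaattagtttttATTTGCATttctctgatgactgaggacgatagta
The second lay in a masked repeat and the first did not. The motif GGGTGTGG of Klf factors was present at 2 positions, both in masked repeats, TTCCNGGAA of STAT factors at 1 position inside the first intron, and TCAAGGTCA of Esrrb at 0. Of 5525 stretches of the same length, each centred on a B6 H3K27ac region, 74.8% held the octamer, 85.3% the Klf motif, 51.0% the STAT motif and 51.9% the Esrrb motif, and 44.7% held at least 2 octamers. The motif content of the domain was thus common for its length, and a match of letters does not show binding.

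Genes with a pattern like that of Dhrs7 over the 4 lists were ranked by Euclidean distance over log2 of 1 plus the summed score or normalised tags. The nearest were Gm15698 (distance 0.0279, B6 H3K27ac sum 659), Hsd17b3 (0.555, 457), Mfap3 (0.636, 432), Hes1 (0.764, 395) and Gm6249 (0.805, 384). Each of the 5, like Dhrs7, had a sum of 0 in the other 3 lists, so the order of this likeness follows the B6 H3K27ac sum. For H3K4me3, a sum of 0 means no region centred within 5 kb of a TSS of the gene. The wide domains assigned to Mfap3 and Hes1 overlapped 1 and 2 B6 H3K4me3 regions. Those assigned to Hsd17b3 and Gm6249 overlapped none, and that of Dhrs7 had one 280 bp away. Hsd17b3 is itself an SDR gene, whose enzyme makes testosterone. Its 4 regions included one of 12.3 kb with a score of 354.9, in intergenic DNA 114 kb from its TSS. The wide domains assigned to Hes1, Gm6249 and Mfap3 lay 98.4 kb, 45.1 kb and 33.5 kb from the TSS of their gene. The domain at Dhrs7 covered its TSS. Hes1 encodes a repressor downstream of Notch.

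The family of Dhrs7 was then examined. Of 11 DHRS genes, 3 had a B6 H3K27ac region and 1 a NOD H3K27ac region, beside 16.7% and 18.2% of 21900 protein-coding genes. Without Dhrs7, whose choice fixes its own place, 2 of 10 had a B6 region, a share near that of all genes. Dhrs4, encoding a peroxisomal carbonyl and retinal reductase, had B6 regions of 68.4 and 17.9, and Dhrs7b one of 19.3. Dhrs3, whose enzyme reduces retinaldehyde, had 3 NOD regions of 64.4, 52.2 and 10.7. Their scores were about the size of the smaller Dhrs7 region or below it, and 7 of the 11 genes had no region in any list. The share of all protein-coding genes without any region was not counted, so nothing is read from this count. None of the 11 had an H3K4me3 region of B6 or NOD centred within 5 kb of a TSS, where 8.98% of all protein-coding genes had one for B6 and 15.8% for NOD.

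Among 14 matched genes of other steroid-metabolizing SDR enzymes, 4 had a B6 H3K27ac region and 3 a NOD one, and 1 had a B6 H3K4me3 region and 2 a NOD one. Over all protein-coding genes the shares were, in this order, 16.7%, 18.2%, 8.98% and 15.8%. The B6 H3K27ac genes were Hsd17b3, Hsd17b11, Hsd17b2 and Hsd17b6, and outside Hsd17b3 their scores ran up to 40.7. Hsd17b14 was on the NOD side with both marks (H3K27ac score 156.4, and 3 H3K4me3 regions of 68 to 84 NOD tags against 4 to 13 B6 tags). The list thus held genes on both strain sides.

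Of 32 genes of retinoid metabolism and its receptors, 8 had a B6 H3K27ac region and 6 a NOD one, while 3 had a B6 H3K4me3 region and 12 a NOD one. The shares over all protein-coding genes were again 16.7%, 18.2%, 8.98% and 15.8%, and the NOD H3K4me3 count was farther above its share than the other 3 counts. The B6 side was led by Rara, the retinoic acid receptor alpha gene, with an H3K27ac domain of 22.7 kb and a score of 285.5. Like that at Dhrs7, this was a wide domain, and a B6 H3K4me3 region of 78 B6 and 22 NOD tags lay within it. On the NOD side, Aldh1a2, encoding an enzyme of retinoic acid synthesis, had an H3K27ac region of 178.7 and an H3K4me3 region of 193 NOD and 27 B6 tags. Cyp26a1, encoding an enzyme that degrades retinoic acid, had an H3K4me3 region of 109 NOD and 14 B6 tags. With the limit at 1 kb from a TSS, 6 of the 32 had a NOD H3K4me3 region, beside 6.56% of all protein-coding genes.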

How the data were processed

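ChIP-Seq regions from 4 libraries, 1 per strain and mark, were analysed without replicates. Methods of the study name bowtie2 and mm10, and the submitters' processing notes name mm9, STAR 2.2.0c, CASAVA 1.8.2 and HOMER. The file headers name mm10, and the distances to the Dhrs7 TSS and the chromosome lengths matched RefSeq GRCm38.p6, which was used for genes and sequence. For H3K4me3, the authors deposited the tag count of each region in both strains and a normalised signal, the tags per 10000000 of the library, after calling regions with HOMER at a peak size of 500 bp, at least 8 tags, at least 4-fold over the other strain and a Poisson p of 1.00e-04. The tag count of the NOD list, scaled to the B6 library, was returned to whole NOD tags with the library totals. For H3K27ac, the authors deposited a score per region from the HOMER super enhancer pipeline. Fold and p columns of the authors compare the strains and were not used.

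Members, gene lists and comparisons were chosen with earlier results of these data known. Named genes were Dhrs7, genes in the window or assigned to a region there, the 5 most alike over the lists, the 5 top wide domains of each H3K27ac list and gene list members with a region. Magi1, Gm5441, Gpr135, Daam1 and Gphb5, assigned to regions next in rank or position, were named after their values were seen, and 1 such region is not reported here. H3K27ac regions were tied to genes by the name in the file, and H3K4me3 regions by a TSS within 5 kb of the centre. A shared base (1 bp) counted as overlap. Folds used library totals, with exact Clopper-Pearson 95% intervals, and tag intervals were exact Poisson. Python 3.11.15, numpy 2.4.6, pandas 2.3.3, scipy 1.17.1 and pysam 0.24.0 were used, and functions were tested on simulated data. Marker genes of ES cells (8) and of differentiated cells (6) were also looked up, which shows strain differences near them and not the cell type.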

Additional observations from a re-analysis of the deposited data

How the results depend on the processing

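Of 40 alternatives over 21 results, 27 left the value within its limit and 13 moved it. Reversal of a direction was not scored. Where a count was 0, a stricter cut could not change it, and such cases are among the 27. With 3 times the window, the NOD H3K27ac regions went from 0 to 2, the B6 H3K4me3 regions from 3 to 6 and the NOD H3K4me3 regions from 2 to 5. The NOD H3K4me3 regions fell to 1 in the shorter window tried, to 1 at 10 or more normalised tags and to 1 at 8-fold. The leading domain ranked 4640 by score per kb and 1 among regions of at least 10 kb. Scaled to the tags in listed regions, the fold of the H3K4me3 region beside the domain was 15.6, as a larger share of NOD tags lay in listed regions. The domains with more score per kb numbered 21 at a minimum width of 5 kb and 0 at 20 kb. With a TSS within 1 kb, NOD H3K4me3 genes numbered 6 for retinoid genes and 1 for steroid SDR genes, beside 6.56% of all protein-coding genes. A fold summed over the B6 regions of the window was planned and left out, with its alternatives, since each region was listed for its direction. No paired analysis was possible because each group held 1 library. Each value rests on 1 library per strain and mark, no input library was analysed here, and the H3K27ac tag totals are unknown. Tags below about 10 per region leave wide intervals.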

Other observations

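Markers of ES cells and of differentiated cells gave values beside those at Dhrs7. Of 8 ES cell markers, 3 had a B6 H3K27ac region, 5 a NOD H3K27ac region, 2 a B6 H3K4me3 region and 3 a NOD H3K4me3 region, beside 16.7%, 18.2%, 8.98% and 15.8% of all protein-coding genes. Zfp42, a marker of naive ES cells, had NOD H3K27ac regions of up to 417.8 and 5 NOD H3K4me3 regions, the strongest with 1436 NOD and 77 B6 tags. Sox2 had NOD H3K4me3 regions of 192 NOD and 31 B6 tags and of 136 NOD and 19 B6 tags, and Pou5f1, encoding OCT4, one of 110 NOD and 0 B6 tags centred 1.70 kb from its TSS. Nanog was assigned a NOD H3K27ac region of 18.5, which lay 37.2 kb from its TSS. On the B6 side, Esrrb had an H3K4me3 region of 28 B6 and 9 NOD tags at its TSS, and Dppa3 one of 16 B6 and 0 NOD tags. H3K27ac regions of both strains were assigned to Dppa3 (39.0 in B6, 44.8 in NOD), Klf4 (9.05 and 18.3) and Tfcp2l1 (sums of 20.8 and 7.88). In the same order of strains, these lay 36.7 kb and 4.22 kb from the TSS of Dppa3 and 17.2 kb and 46.2 kb from that of Klf4. Those of Tfcp2l1 lay between 62.4 kb and 149 kb away. The ES cell markers thus had listed regions on both strain sides.

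Of 6 genes of differentiated cells, 0 had a B6 H3K27ac region, 3 a NOD H3K27ac region, 1 a B6 H3K4me3 region and 4 a NOD H3K4me3 region, to be read beside the same shares of all genes. The NOD H3K4me3 regions were those of Gata6 (152 NOD and 15 B6 tags), Nes (356 and 24), Gata4 (118 and 16, and 21 and 1) and T (64 and 10). Gata4 also had a B6 H3K4me3 region of 15 B6 and 0 NOD tags, and the NOD H3K27ac regions at Nes, Gata6 and Cdx2 scored 28.8, 17.0 and 7.77. The part of these values in the result at Dhrs7 was not tested.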
